A study of Mus musculus with 18 samples.

Results

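The genes described here are 10 identity genes of cardiac fibroblasts, given as a list of names, and no measured value entered the choice rule. They are the resident fibroblast genes Pdgfra, Tcf21, Pi16, Dpt and Scara5, the stromal surface genes Cd248 and Thy1, and the activation genes Meox1, Fap and Runx1. All 10 were found among the 25731 gene symbols of the count table, and all 10 were among the 15088 genes with enough counts to be tested. By their labels, the hearts came from wild-type adult male C57BL/6 mice and were collected on day 7 after surgery. There were 6 mice with ischemia-reperfusion and decursin (IR+Decursin), 6 with ischemia-reperfusion alone (IR) and 6 with sham surgery (SHAM). In ischemia-reperfusion the blood supply of part of the heart is stopped and then restored. Decursin is a coumarin compound from Angelica roots; the sources used here give neither its dose nor its route. The libraries were made from bulk heart RNA, 1 per animal, so fewer cells of a type and less RNA per cell cannot be told apart.

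Fibroblasts of the uninjured heart are quiescent cells that lie between the muscle fibres and maintain the matrix. They derive largely from the epicardium and carry the receptor Pdgfra and the transcription factor Tcf21. After infarction they divide, migrate into the damaged area and turn into matrix-secreting cells, in mice marked by genes such as Postn, Fap and Meox1. Pi16 and Dpt mark a fibroblast population that occurs around vessels in many mouse tissues.

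The libraries held 27.5 to 35.0 M (mega) counts. Labels place each group in a batch of its own, so batch and group cannot be told apart. In 3 libraries labelled male, IR 3, IR 4 and IR+Decursin 2, the female-specific transcript Xist had 14072 to 14232 counts and the Y-linked gene Ddx3y had 0. Those counts contradict the male label, and no SHAM library had this pattern. IR+Decursin 6 stood apart by the gene Gm26917, which took 7.54% of its counts, against 0.0558% to 0.915% in the other 17 libraries. The defining genes of heart muscle were high in every group, with a summed level of 46156 to 76711 CPM (counts per M counts) in IR+Decursin hearts, 39988 to 55351 CPM in IR hearts and 74003 to 87916 CPM in SHAM hearts. All 10 heart muscle genes fell in IR hearts and 6 of 10 fell in IR+Decursin hearts, both against SHAM. CPM are scaled here by edgeR's TMM factors, which correct for the make-up of each library.

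IR hearts had higher levels of 8 of the 10 fibroblast genes than SHAM hearts, and none was lower. The increase reached 6.60-fold for Runx1 and was 1.39-fold for Dpt, the smallest among the called genes. Among all genes tested, 46.9% passed the same threshold, an adjusted p under 0.05 in edgeR's quasi-likelihood test with Benjamini-Hochberg adjustment, and 25.3% passed it as higher. The median log2 fold change of the 10 genes was 0.91, against -0.00 for all genes tested. The lowest IR heart exceeded the highest SHAM heart for 5 of the 10 (Pdgfra, Dpt, Cd248, Thy1 and Runx1), as it did for 15.4% of all genes tested.

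IR+Decursin hearts had higher levels of 6 of the 10 genes than SHAM hearts, namely Pdgfra, Tcf21, Dpt, Cd248, Thy1 and Runx1, and lower levels of none. In this comparison 29.3% of all genes tested were called and 17.5% were called as higher. The median log2 fold change of the 10 genes was 0.61. Pdgfra alone had no overlap between the groups, a pattern found as higher in 4.44% of all genes tested. The comparison uses the same SHAM libraries as IR against SHAM. Between IR+Decursin and IR hearts, none of the 10 genes was called by edgeR, and none of all genes tested was called (0%), while 18% of all genes had an unadjusted p under 0.05.

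**Figure D1:**
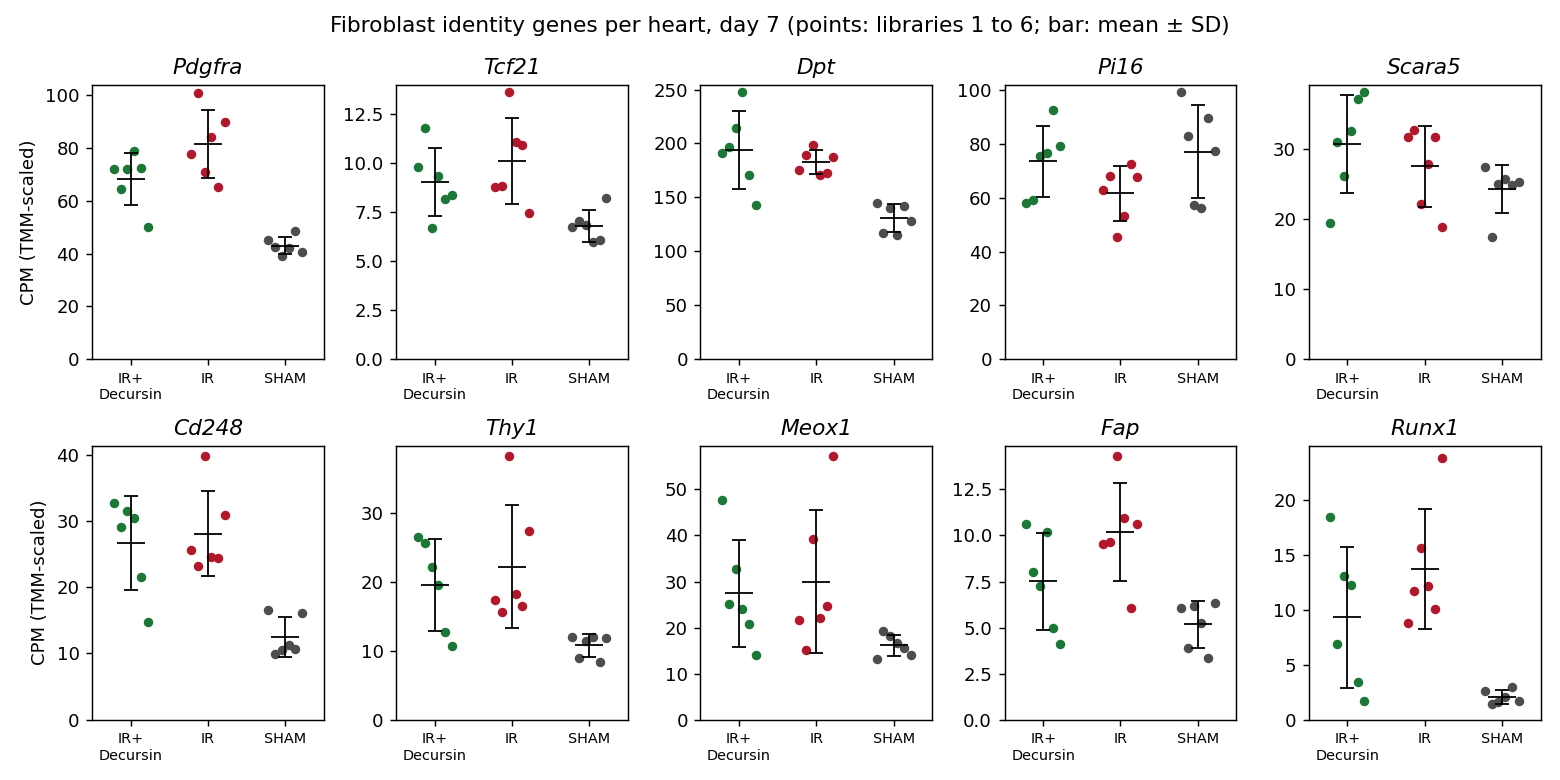
Level of each of the 10 genes in CPM (vertical axes, linear, from 0) in the 6 libraries each of IR+Decursin, IR and SHAM hearts. Points are libraries and bars are mean ± SD. Runx1 lies between 8.81 and 23.8 CPM in IR hearts and between 1.46 and 2.96 CPM in SHAM hearts, and IR+Decursin 6 lies within the SHAM range at 1.71 CPM.

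Runx1 encodes a runt-domain transcription factor known from blood cell formation and also found in injured heart muscle and activated fibroblasts of mice. Its level ranged from 1.71 to 18.4 CPM (median 9.57) in IR+Decursin hearts, from 8.81 to 23.8 CPM (median 11.9) in IR hearts and from 1.46 to 2.96 CPM (median 1.88) in SHAM hearts. Every IR heart lay above every SHAM heart, while IR+Decursin 6 lay within the SHAM range and IR+Decursin 5 just above it at 3.40 CPM. The log2 fold change was 2.72 ± 0.46 (SE) in IR against SHAM hearts (edgeR adjusted p = 0.00016) and 2.17 ± 0.46 in IR+Decursin against SHAM hearts (adjusted p = 0.00258). On log2(FPKM + 1), where the added 1 exceeds the SHAM level of 0.249 FPKM and so shrinks the change, the values were 1.25 (limma-trend adjusted p = 0.000234) and 0.81 (adjusted p = 0.0138). The spread within the IR+Decursin group was wide, at 9.30 ± 6.39 CPM (SD, n = 6), beside 13.7 ± 5.46 CPM in IR and 2.07 ± 0.602 CPM in SHAM hearts.

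Macrophages, which also express Runx1, moved with it. All 10 macrophage markers rose in both comparisons with SHAM, and their summed level was 647 to 1819 CPM in IR+Decursin hearts, 1409 to 2884 CPM in IR hearts and 467 to 643 CPM in SHAM hearts. None of the 10 was at 0 in any group. In the IR+Decursin group heart 1 was highest in both (1819 CPM of macrophage markers, 18.4 CPM of Runx1) and heart 6 lowest in both (647 CPM and 1.71 CPM). In the IR group IR 6 had the highest Runx1 and the second highest macrophage sum (2369 CPM), and IR 4 had the highest macrophage sum (2884 CPM) with 12.2 CPM of Runx1. The part of macrophages in the Runx1 difference was not tested.

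Runx1 has a pair of annotated promoters, whose sequences are shown because Runx1 had the largest increase of the 10 genes. Each window runs from 250 bases before to 50 bases after a start site, 5′ to 3′ on the gene's strand, as given by RefSeq for the build GRCm38.p6. Capitals mark the RUNX-type hexamer TGTGGT or its reverse complement ACCACA, and the TEAD-type hexamer GGAATG.
Runx1, upstream start, chr16:92826025-92826324, minus strand: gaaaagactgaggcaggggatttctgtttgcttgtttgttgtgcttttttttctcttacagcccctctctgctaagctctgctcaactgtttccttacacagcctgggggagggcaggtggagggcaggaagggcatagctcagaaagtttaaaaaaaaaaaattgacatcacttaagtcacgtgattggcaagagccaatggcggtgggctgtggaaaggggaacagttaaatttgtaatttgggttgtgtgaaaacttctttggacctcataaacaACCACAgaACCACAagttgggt
Runx1, downstream start, chr16:92697280-92697579, minus strand: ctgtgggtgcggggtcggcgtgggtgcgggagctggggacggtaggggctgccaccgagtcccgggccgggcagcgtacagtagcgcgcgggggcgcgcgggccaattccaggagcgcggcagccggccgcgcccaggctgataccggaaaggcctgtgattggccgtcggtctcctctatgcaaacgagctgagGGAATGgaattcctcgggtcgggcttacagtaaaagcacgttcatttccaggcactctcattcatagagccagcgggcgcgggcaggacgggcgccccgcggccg
Both capital runs of the upstream window are ACCACA and start at positions 29 and 37 after the start site. The GGAATG of the downstream window starts at position -55. Of 32851 RefSeq promoter windows of the same length, 16.8% hold the RUNX-type hexamer and 14.7% the TEAD-type hexamer on either strand. The AP-1-type heptamer TGANTCA, held by 7.81% of windows, occurs in neither. The upstream window also holds 3 E-boxes (CANNTG, in 72.3% of windows), and none overlaps the capitals. The 2 windows differ in base composition, with 45% G and C upstream and 69% downstream. A match of letters is a description of the window and not a binding site.

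The partner and relatives of Runx1 were read alongside it. Runx2, a runt factor best known from bone, averaged 1.61 ± 0.970 CPM in IR+Decursin hearts, 2.88 ± 1.41 CPM in IR hearts and 0.520 ± 0.198 CPM in SHAM hearts. It rose by 2.47 ± 0.40 on the log2 scale in IR against SHAM hearts (edgeR adjusted p = 5.94e-05) and by 1.64 in IR+Decursin against SHAM hearts (adjusted p = 0.005). Runx3, a runt factor of lymphocytes and sensory neurons, rose by 2.26 ± 0.47 (adjusted p = 0.000607) and 1.57 (adjusted p = 0.0164) in the same comparisons. Cbfb, the shared partner protein of the runt factors, rose by 0.43 in IR against SHAM hearts (adjusted p = 0.0113), and its difference of 0.21 in IR+Decursin against SHAM hearts did not pass (adjusted p = 0.243).

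Meox1, a homeobox transcription factor that acts downstream of TGF-beta in activated mouse fibroblasts, ranged from 14.1 to 47.7 CPM (median 24.5) in IR+Decursin hearts, from 15.2 to 57.3 CPM (median 23.4) in IR hearts and from 13.3 to 19.2 CPM (median 16.04) in SHAM hearts. In both ischemia-reperfusion groups 5 of 6 hearts exceeded all SHAM hearts. IR 2 and IR+Decursin 6 were the hearts within the SHAM range. The log2 fold change in IR against SHAM hearts was 0.90 ± 0.30 (edgeR adjusted p = 0.0228). That call rested on IR 3 and IR 6: it was 0.80 without IR 3 (adjusted p = 0.0519) and 0.60 without IR 6 (adjusted p = 0.0748). In IR+Decursin against SHAM hearts the value was 0.77 ± 0.30, which did not pass (adjusted p = 0.0675), while it passed without IR+Decursin 6, at 0.90 (adjusted p = 0.0272), and without IR 2 (adjusted p = 0.0498) or IR 6 (adjusted p = 0.0312). It passed in 5 of 10 other settings: DESeq2, at 0.76 (adjusted p = 0.0477), library totals alone (adjusted p = 0.0233), a fit of the 2 groups alone (adjusted p = 0.0306), and limma-trend on log2(FPKM + 1) (adjusted p = 0.0421) and on log2(FPKM + 0.1) (adjusted p = 0.039). The FPKM are scaled by library totals without TMM factors, so the limma-trend settings share the scaling of library totals alone. Without the 3 Xist-positive libraries the IR against SHAM value was 0.88 (adjusted p = 0.0631, not called).

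Meox2, the close relative of Meox1 that is found in vessels, averaged 20.1 ± 4.42 CPM in IR+Decursin hearts, 18.7 ± 4.41 CPM in IR hearts and 20.8 ± 3.63 CPM in SHAM hearts. Its log2 difference of -0.15 in IR against SHAM hearts did not pass (edgeR adjusted p = 0.495). Of 8 TGF-beta ligand, receptor and Smad genes, 6 rose in IR and 5 in IR+Decursin hearts, both against SHAM. The ligand Tgfb2 averaged 14.6 ± 4.67 CPM in IR+Decursin, 18.8 ± 5.83 CPM in IR and 7.90 ± 2.17 CPM in SHAM hearts, and in IR against SHAM hearts it rose by 1.26 on the log2 scale. Smad2 and Smad4, which carry the TGF-beta signal to the nucleus, did not pass in IR against SHAM hearts.

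Fap, a serine protease on the surface of activated fibroblasts, ranged from 4.12 to 10.6 CPM (median 7.61) in IR+Decursin hearts, from 6.04 to 14.3 CPM (median 10.1) in IR hearts and from 3.35 to 6.33 CPM (median 5.66) in SHAM hearts. All IR hearts but IR 5 lay above the SHAM range. IR+Decursin 5 and 6 lay within it. The log2 fold change was 0.98 ± 0.24 in IR against SHAM hearts (edgeR adjusted p = 0.00208). In IR+Decursin against SHAM hearts it was 0.54 ± 0.24 and did not pass (adjusted p = 0.0893), but it passed without IR+Decursin 5 (adjusted p = 0.0489) and, at 0.67, without IR+Decursin 6 (adjusted p = 0.0246), as well as at 0.80 with library totals alone (adjusted p = 0.0259). The 6 cell division markers all rose in both comparisons with SHAM, with a summed level of 16.2 to 150 CPM in IR+Decursin, 57.1 to 157 CPM in IR and 8.73 to 42.8 CPM in SHAM hearts, and their part in the Fap difference was not tested.

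Among 20 other markers of activated fibroblasts, 13 rose and 2 fell in IR against SHAM hearts, with a median log2 fold change of 1.60. In IR+Decursin against SHAM hearts 10 rose and none fell, with a median of 1.37. Cthrc1, a secreted matrix protein of scar fibroblasts, rose by 7.09 in IR against SHAM hearts, and the matrix protein Postn rose by 3.52. The 2 that fell were the matrix proteins Comp, by 1.03 (adjusted p = 0.0123), and Fmod, by 1.35 (adjusted p = 0.000803). Acta2, the smooth muscle actin of myofibroblasts and vessel walls, had a log2 difference of 0.16 that did not pass (edgeR adjusted p = 0.576). The summed level of the 20 markers was 1931 CPM in IR+Decursin 5 and 928 CPM in IR+Decursin 6, against 5437 to 11352 CPM in the other 4 IR+Decursin hearts, 7249 to 12167 CPM in IR hearts and 807 to 1027 CPM in SHAM hearts. The collagen genes Col3a1 and Col1a1 had the largest shares of this sum in both ischemia-reperfusion groups. They averaged 3593 and 2186 CPM in IR hearts beside a mean sum of 8837 CPM. In IR+Decursin hearts they averaged 2597 and 1575 CPM beside 6433 CPM. The low Runx1 and Fap of IR+Decursin 5 and 6 thus stood in the hearts with the lowest sums of the other activation genes in their group, sums made up largely of these collagens.

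**Figure D2:**
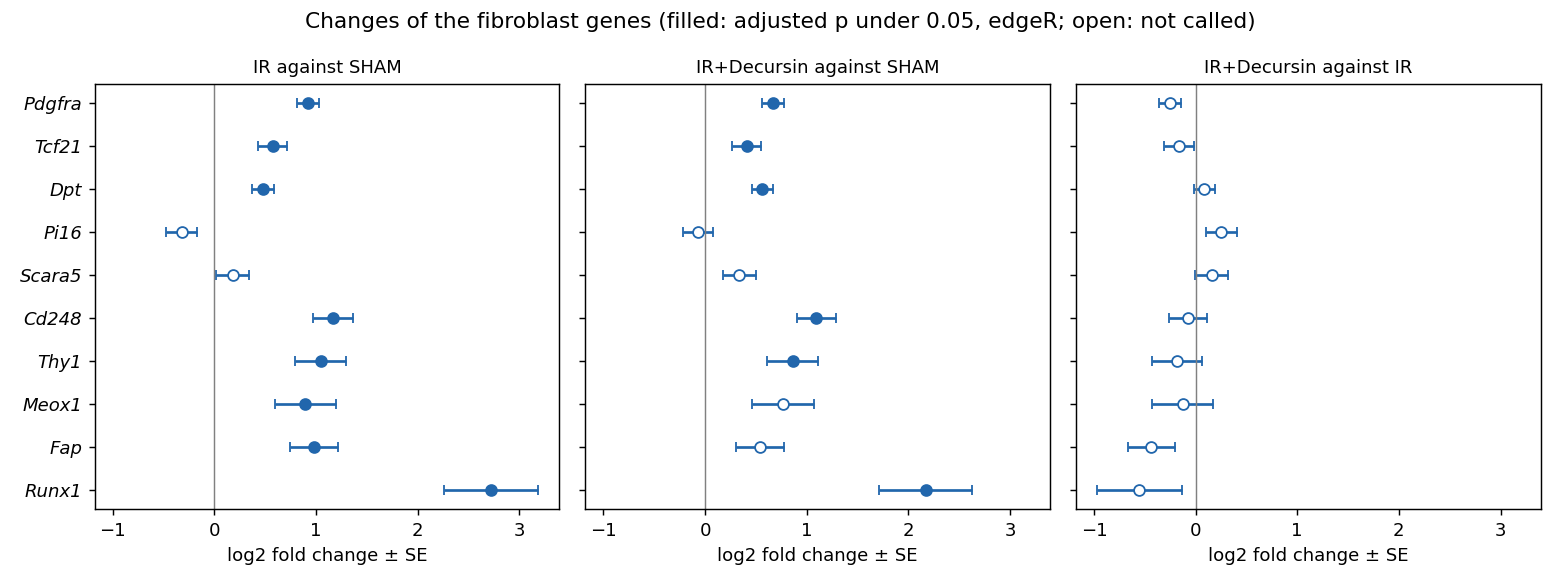
Log2 fold change (horizontal axis) of each of the 10 genes in the 3 comparisons, with bars of ± 1 SE from edgeR's quasi-likelihood fit; filled points passed an adjusted p of 0.05. In IR against SHAM hearts 8 points are filled and all lie right of 0, and in IR+Decursin against IR hearts none is filled.

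Cd248 (endosialin), a membrane glycoprotein of stromal cells and pericytes, ranged from 14.7 to 32.7 CPM (median 29.8) in IR+Decursin hearts, from 23.3 to 39.8 CPM (median 25.1) in IR hearts and from 9.93 to 16.5 CPM (median 10.98) in SHAM hearts. All IR hearts and all IR+Decursin hearts except IR+Decursin 6 lay above the SHAM range. It rose by 1.17 ± 0.19 on the log2 scale in IR against SHAM hearts (edgeR adjusted p = 9.36e-05) and by 1.09 ± 0.19 in IR+Decursin against SHAM hearts (adjusted p = 0.00075). Of 8 pericyte and smooth muscle markers, none rose and 5 fell in IR against SHAM hearts. Their summed level was 1108 to 1446 CPM in IR+Decursin, 755 to 1223 CPM in IR and 1243 to 1377 CPM in SHAM hearts. Clec14a, Cd93 and Thbd, the relatives of Cd248 in the same family of membrane lectins, did not pass in IR against SHAM hearts.

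Thy1, a lipid-anchored surface protein of fibroblasts that mouse T cells and neurons also carry, ranged from 10.7 to 26.6 CPM (median 20.9) in IR+Decursin hearts, from 15.7 to 38.3 CPM (median 17.8) in IR hearts and from 8.40 to 12.1 CPM (median 11.7) in SHAM hearts. The groups did not overlap between IR and SHAM, and IR+Decursin 6 alone of its group lay within the SHAM range. Thy1 rose by 1.04 ± 0.25 in IR against SHAM hearts (edgeR adjusted p = 0.00212) and by 0.86 ± 0.25 in IR+Decursin against SHAM hearts (adjusted p = 0.0147). Of 9 T cell markers tested, 8 rose in IR hearts, and 6 rose and 1 fell in IR+Decursin hearts, against SHAM, with a summed level of only 6.52 to 12.7 CPM in IR+Decursin, 9.12 to 21.8 CPM in IR and 5.70 to 5.99 CPM in SHAM hearts for the 10 markers of the list. Of these markers, Cd28 had the largest share of the sum in SHAM hearts, averaging 4.22 CPM beside a mean sum of 5.85 CPM. Its mean was lower in the other groups, at 3.201 CPM in IR+Decursin and 3.95 CPM in IR hearts. The sum thus understates the rise of the other markers. None of the 10 markers was at 0 in any group. The T cell receptor gene Cd3e averaged 0.415 CPM in IR+Decursin, 0.505 CPM in IR and 0.0898 CPM in SHAM hearts. In the IR+Decursin group heart 1 was highest in both (12.7 CPM of T cell markers, 26.6 CPM of Thy1), and hearts 5 and 6 were lowest in both (6.52 and 6.53 CPM of T cell markers, 12.7 and 10.7 CPM of Thy1). In the IR group IR 3 had the highest Thy1 and the second highest T cell sum (14.4 CPM), and IR 4 had the highest T cell sum with 18.3 CPM of Thy1. Of 6 Schwann cell and neuron markers tested, 1 rose in IR against SHAM hearts. The part of T cells in the Thy1 difference was not tested.

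Pdgfra, the receptor for PDGF ligands by which heart fibroblasts are commonly identified, ranged from 50.02 to 78.8 CPM (median 72.1) in IR+Decursin hearts, from 65.4 to 101 CPM (median 80.9) in IR hearts and from 39.1 to 48.5 CPM (median 42.3) in SHAM hearts. It was the only gene of the 10 for which every heart of both ischemia-reperfusion groups lay above every SHAM heart. The log2 fold change was 0.92 ± 0.11 in IR against SHAM hearts (edgeR adjusted p = 5.35e-06) and 0.67 ± 0.11 in IR+Decursin against SHAM hearts (adjusted p = 0.00043). The second PDGF receptor, Pdgfrb, averaged 86.0 ± 8.16 CPM in IR+Decursin, 80.9 ± 13.0 CPM in IR and 72.9 ± 9.003 CPM in SHAM hearts, and its log2 difference of 0.15 in IR against SHAM hearts did not pass (adjusted p = 0.246). Of the 4 PDGF ligand genes, 2 rose in IR against SHAM hearts, Pdgfc by 1.08 ± 0.24 (adjusted p = 0.000865) and Pdgfa by 0.38 (adjusted p = 0.00769), and Pdgfc rose by 0.91 in IR+Decursin against SHAM hearts (adjusted p = 0.00736). Both encode ligands that bind Pdgfra.

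Tcf21, a basic helix-loop-helix factor needed for fibroblasts to form from the mouse epicardium, ranged from 6.72 to 11.8 CPM (median 8.86) in IR+Decursin hearts, from 7.48 to 13.6 CPM (median 9.91) in IR hearts and from 5.98 to 8.22 CPM (median 6.79) in SHAM hearts. IR 6 and both IR+Decursin 3 and 5 lay within the SHAM range. It rose by 0.57 ± 0.15 in IR against SHAM hearts (edgeR adjusted p = 0.00301). The log2 fold change of 0.41 ± 0.15 in IR+Decursin against SHAM hearts passed narrowly (adjusted p = 0.0404), and in 9 of 18 fits that left out 1 library it did not, with an adjusted p of 0.0562 to 0.114. These were the fits without SHAM 1, 2, 3, 4 or 5, IR 1, or IR+Decursin 1, 2 or 4. Without the 3 Xist-positive libraries it was 0.32 (adjusted p = 0.078, not called). Of 9 epicardial and mesothelial markers tested, 8 rose in each comparison with SHAM; the sum over the 10 markers of the list was 8.74 to 39.5 CPM in IR+Decursin, 11.6 to 52.1 CPM in IR and 6.06 to 8.96 CPM in SHAM hearts, where Bnc1 was at 0. Their part in the Tcf21 difference was not tested. Of the Tcf21-related helix-loop-helix genes, its dimer partner Tcf12 rose by 0.25 (adjusted p = 0.034) and Tcf15 fell by 0.83 (adjusted p = 0.0215) in IR against SHAM hearts. Tcf3, another partner of this class, had a difference of 0.21 that did not pass (adjusted p = 0.102).

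Dpt (dermatopontin), a secreted protein that binds collagen fibrils, ranged from 143 to 248 CPM (median 194) in IR+Decursin hearts, from 171 to 199 CPM (median 181) in IR hearts and from 115 to 145 CPM (median 134) in SHAM hearts. All IR hearts lay above the SHAM range, and IR+Decursin 6 just reached into it. The log2 fold change was 0.48 ± 0.10 in IR against SHAM hearts (edgeR adjusted p = 0.000856) and 0.56 ± 0.10 in IR+Decursin against SHAM hearts (adjusted p = 0.000847). The Dpt promoter window of RefSeq is shown because Dpt had the highest level of the 10 genes per length. Capitals mark ACCACA, as above, and the TATA-type hexamer TATAAA, held by 13.6% of all windows.
Dpt, chr1:164796413-164796712, plus strand of GRCm38.p6: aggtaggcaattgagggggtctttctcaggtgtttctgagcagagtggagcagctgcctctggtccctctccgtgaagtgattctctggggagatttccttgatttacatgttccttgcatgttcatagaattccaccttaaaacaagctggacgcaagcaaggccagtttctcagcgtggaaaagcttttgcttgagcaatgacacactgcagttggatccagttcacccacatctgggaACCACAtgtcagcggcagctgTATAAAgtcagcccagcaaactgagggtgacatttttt
ACCACA starts at position -9 and TATAAA at position 13. The window also holds 7 E-boxes (CANNTG), 1 of which overlaps ACCACA. RefSeq windows were found for 5 of the 10 genes, and those of Pdgfra, Tcf21 and Pi16 hold none of the AP-1, TEAD, RUNX or TATA hexamers and heptamers searched.

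Pi16 and Scara5 were the 2 genes not called in any comparison. Pi16, a secreted peptidase inhibitor, ranged from 58.0 to 92.7 CPM (median 76.0) in IR+Decursin hearts, from 45.5 to 72.5 CPM (median 65.4) in IR hearts and from 56.4 to 99.3 CPM (median 80.3) in SHAM hearts. The 3 groups overlapped, and SHAM hearts themselves spanned a wide range. Its log2 difference was -0.32 ± 0.15 in IR against SHAM hearts (edgeR adjusted p = 0.084) and -0.07 ± 0.15 in IR+Decursin against SHAM hearts (adjusted p = 0.758), which turned to 0.15 with libraries scaled by their totals alone. The IR against SHAM value was -0.40 and passed when either SHAM 3 (adjusted p = 0.0365) or SHAM 4 (adjusted p = 0.0337) was left out, and was -0.00 when libraries were scaled by their totals alone. Dpp4, a surface peptidase that marks the same fibroblast population as Pi16 in mice, averaged 3.72 ± 1.23 CPM in IR+Decursin, 4.11 ± 1.18 CPM in IR and 2.86 ± 0.986 CPM in SHAM hearts, and its log2 difference of 0.52 in IR against SHAM hearts did not pass (adjusted p = 0.0927).

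Scara5, a scavenger receptor that takes up ferritin, ranged from 19.5 to 38.1 CPM (median 31.7) in IR+Decursin hearts, from 18.8 to 32.7 CPM (median 29.7) in IR hearts and from 17.4 to 27.4 CPM (median 25.1) in SHAM hearts. In each ischemia-reperfusion group 4 of 6 hearts lay above the SHAM range and the others within it. The log2 difference was 0.18 ± 0.16 in IR against SHAM hearts (edgeR adjusted p = 0.379) and 0.34 ± 0.16 in IR+Decursin against SHAM hearts (adjusted p = 0.122). Without IR+Decursin 1 the IR+Decursin against SHAM value was 0.44 and passed (adjusted p = 0.033). With libraries scaled by their totals alone both passed, at 0.49 (adjusted p = 0.0108) and 0.54 (adjusted p = 0.00937); that scaling moved the median of all genes by 0.31 and 0.22. The deposited FPKM share that scaling, as they are divided by library totals without TMM factors. In limma-trend fits both passed on log2(FPKM + 1), with adjusted p of 0.0194 and 0.0192. Both passed there on log2(FPKM + 0.1) too, with limma-trend adjusted p of 0.0189 and 0.0171. Scara3, another member of the scavenger receptor class, averaged 11.52 ± 5.40 CPM in IR+Decursin, 12.0 ± 3.93 CPM in IR and 6.43 ± 1.38 CPM in SHAM hearts, and rose by 0.89 in IR (adjusted p = 0.0132) and 0.84 in IR+Decursin hearts (adjusted p = 0.0291) against SHAM.

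Of 16 other resident fibroblast markers, 8 rose and 2 fell in IR against SHAM hearts, with a median log2 fold change of 0.28. The count was 8 that rose and 1 that fell in IR+Decursin against SHAM hearts, with a median of 0.32. The elastic fibre protein Mfap5 rose by 1.49 and the small proteoglycan Lum by 0.92 in IR against SHAM hearts. The 2 that fell were Gsn (gelsolin, which severs actin filaments) by 0.66 (edgeR adjusted p = 0.0021) and Abca8a (a membrane transporter) by 0.52 (adjusted p = 0.00123). Cd34, a surface protein of fibroblasts and endothelium, had a log2 difference of -0.00 in IR against SHAM hearts. The summed level of the 16 overlapped between groups, at 2946 to 3351 CPM in IR+Decursin, 2859 to 3163 CPM in IR and 2691 to 3406 CPM in SHAM hearts. Gsn had the largest share of the sum in SHAM hearts. It averaged 1056 CPM in IR+Decursin, 790 CPM in IR and 1249 CPM in SHAM hearts, so its fall offset rises of other markers in the sum.

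**Figure D3:**
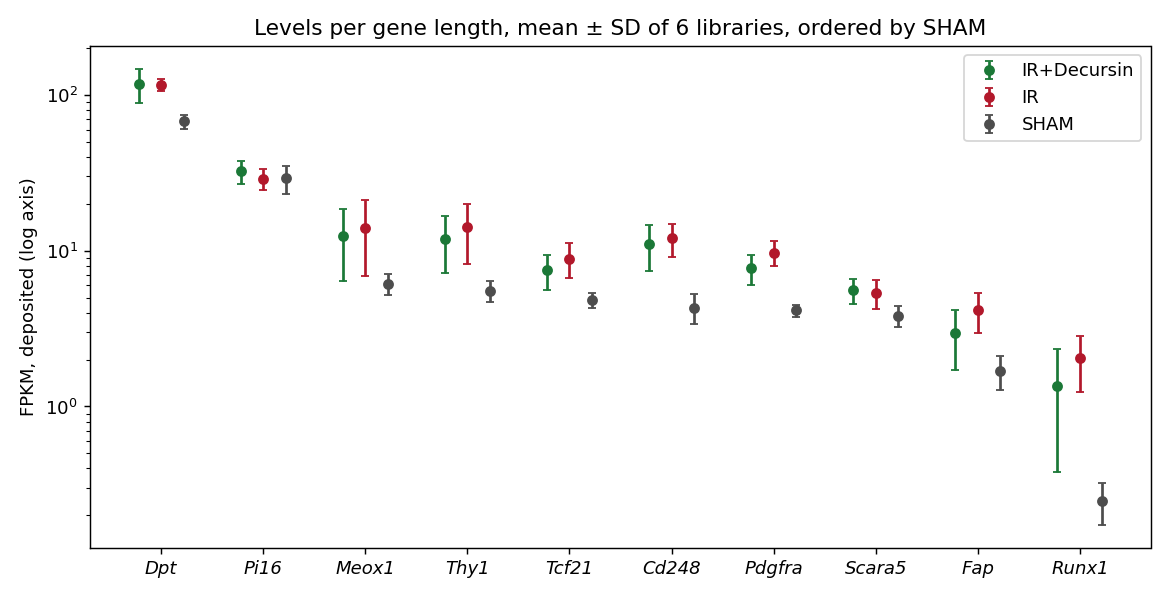
Deposited FPKM of the 10 genes (vertical axis, logarithmic), as mean ± SD of 6 libraries in IR+Decursin, IR and SHAM hearts, ordered by the SHAM mean. Dpt and Pi16 lie at the top and Fap and Runx1 at the bottom in all 3 groups.

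Levels between genes were compared as FPKM (fragments per kilobase of gene length and per M counts), as deposited. Dpt was the highest of the 10 in every group, with a level of 118 ± 29.4 FPKM in IR+Decursin, 117 ± 10.2 FPKM in IR and 67.8 ± 7.00 FPKM in SHAM hearts. Pi16 came next at 32.4 ± 5.38 FPKM in IR+Decursin, 28.9 ± 4.52 FPKM in IR and 29.2 ± 6.03 FPKM in SHAM hearts. Thy1, Meox1, Cd248, Pdgfra, Tcf21 and Scara5 lay between, with mean levels of 3.82 to 14.1 FPKM over the 3 groups. Their order differed between groups, and ordered by a group's own means, the library values of neighbours among these 6 overlapped in each group. Fap had a level of 2.94 ± 1.22 FPKM in IR+Decursin, 4.15 ± 1.19 FPKM in IR and 1.69 ± 0.408 FPKM in SHAM hearts. Runx1 was the lowest, at 1.36 ± 0.979 FPKM in IR+Decursin, 2.04 ± 0.801 FPKM in IR and 0.249 ± 0.0750 FPKM in SHAM hearts. The largest fold increase among the 10 was thus of the gene with the lowest level.

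The comparison of IR+Decursin with IR hearts asks how the treated injured hearts differed from the untreated injured hearts. None of the 10 genes passed in edgeR's test, and their log2 fold changes lay between -0.55 and 0.25, with a median of -0.15. Before adjustment, edgeR gave 1 of the 10, Pdgfra, a p under 0.05 (0.0276), a mark that 18% of all genes tested passed. No gene of the 10 had groups without overlap, a pattern seen in 0.517% of all genes tested. Runx1 had the lowest value at -0.55 ± 0.42 (adjusted p = 0.496), followed by Fap at -0.43 ± 0.23 (adjusted p = 0.322) and Pdgfra at -0.25 ± 0.11 (adjusted p = 0.229). Pi16 had the highest at 0.25 ± 0.15 (adjusted p = 0.376). Scara5 (0.16 ± 0.16), Dpt (0.09 ± 0.10), Cd248 (-0.07 ± 0.19), Meox1 (-0.13 ± 0.30), Tcf21 (-0.16 ± 0.14) and Thy1 (-0.18 ± 0.24) lay closer to 0. A p that misses the threshold does not show that the groups were alike. The Runx1 value was -0.87 without IR+Decursin 1, -0.34 without IR+Decursin 6, -0.32 without IR 6 and -0.85 on log2(FPKM + 0.1), and the Fap value was -0.27 without the 3 Xist-positive libraries, all uncalled. DESeq2 called 470 genes in this comparison and edgeR called 976 without IR+Decursin 1, and none of the 10 was among either set.

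**Figure D4:**
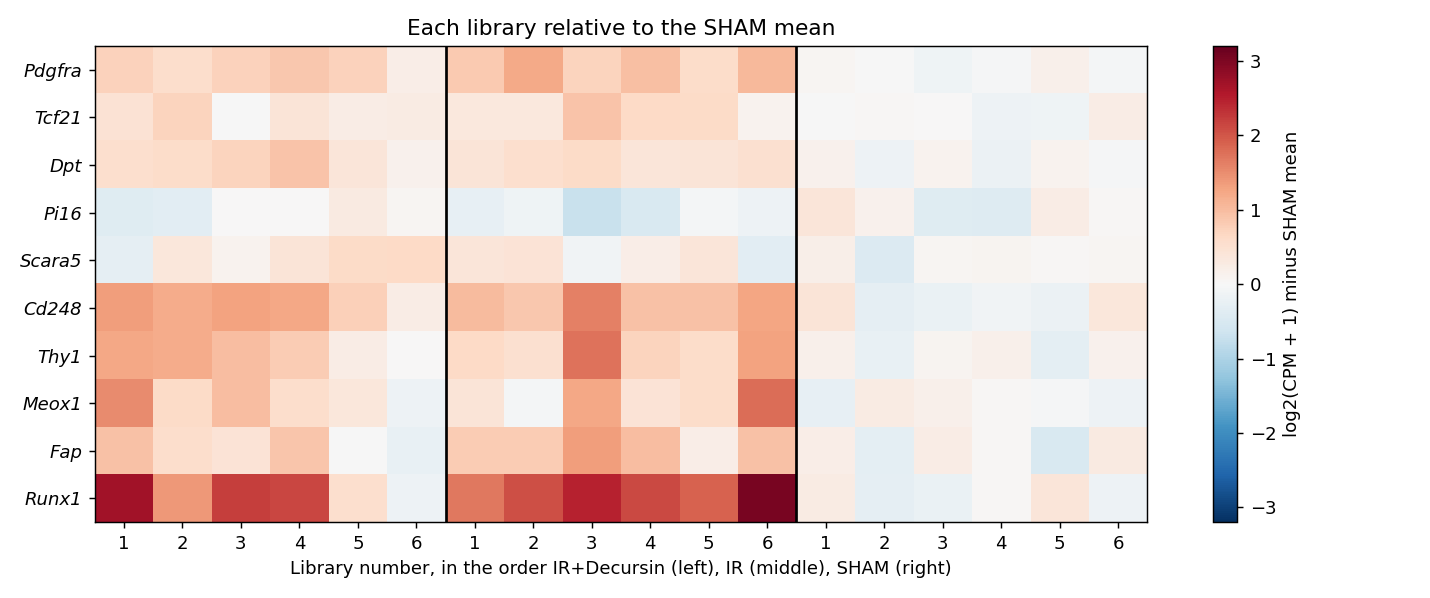
Log2(CPM + 1) of the 10 genes (rows) in each library, minus the gene's SHAM mean; columns run from IR+Decursin 1 to 6 over IR 1 to 6 to SHAM 1 to 6. Red is above and blue below the SHAM mean. IR+Decursin 6 is the palest library of the ischemia-reperfusion groups, with 3 of 10 genes above all SHAM hearts.

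Single hearts differed in how many of the 10 genes they raised. IR hearts had 7 to 9 of the 10 genes above all SHAM hearts. IR+Decursin 1 to 5 also had 7 to 9, while IR+Decursin 6 had 3 (Pdgfra, Tcf21 and Scara5). Pi16 lay below all SHAM hearts in IR 3 and IR 4. The same count over all genes was not made, so these counts do not set the 10 genes apart from other genes. Some other marker sums of IR+Decursin 6 also lay within or near the SHAM range. Its sum was 647 CPM for macrophages (467 to 643 CPM in SHAM hearts), 76711 CPM for heart muscle (74003 to 87916 CPM in SHAM) and 16.2 CPM for cell division (8.73 to 42.8 CPM in SHAM). Its epicardial and mesothelial sum of 14.5 CPM lay above the SHAM range of 6.06 to 8.96 CPM. The same held for pericyte and smooth muscle markers (1446 CPM, 1243 to 1377 CPM in SHAM) and T cell markers (6.53 CPM, 5.70 to 5.99 CPM in SHAM). Their part in the low fibroblast genes of this heart was not tested. Without IR+Decursin 6, the number of the 10 genes called in IR+Decursin against SHAM hearts was 8 rather than 6. Over all genes the number called also rose, to 5130 from 4421. The TMM factor of IR+Decursin 6 was the lowest of all, at 0.831.

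Within the groups, Scara5 ran opposite to Meox1. Pearson's r over the 6 hearts was -0.96 in IR+Decursin (exact permutation p = 0.00278), -0.95 in IR (exact p = 0.0222) and -0.73 in SHAM (exact p = 0.0389), two-sided. Spearman's rho was -1 in IR+Decursin (exact p = 0.00278), -0.83 in IR (exact p = 0.0583) and -0.71 in SHAM hearts (exact p = 0.136). A p of 0.00278 is the smallest that 6 hearts allow. None of the 135 relations computed among the 10 genes in the 3 groups passed Benjamini-Hochberg adjustment, the lowest adjusted p being 0.188. A single relation at that smallest p could not have passed. Without the 2 hearts farthest from the median in Scara5, r was -0.85 in IR+Decursin, -0.41 in IR and -0.01 in SHAM. That leaves 4 hearts over a narrower range of Scara5, which by itself can weaken r. Whether the relation in IR and SHAM rested on those hearts thus cannot be told. Scara5 and Runx1 had r = -0.85 in IR+Decursin (exact p = 0.0139), -0.94 in IR (exact p = 0.025) and 0.57 in SHAM hearts (exact p = 0.108). Without the 2 hearts farthest from the Scara5 median these were -0.85, -0.46 and -0.29, so the SHAM value changed sign. Spearman's rho of Scara5 with Thy1 was -0.94 in IR+Decursin, -0.94 in IR and 0.89 in SHAM hearts (exact p = 0.0167, 0.0167 and 0.0333). With Cd248 it was -0.94, -0.89 and 0.89 in the same order (exact p = 0.0167, 0.0333 and 0.0333). Pearson's r was weaker in each group, at -0.80, -0.85 and 0.60 with Thy1 (exact p = 0.025, 0.0694 and 0.275). It was -0.73, -0.78 and 0.56 with Cd248 (exact p = 0.00556, 0.103 and 0.0389). Without the 2 hearts farthest from the Scara5 median, r was -0.99, -0.89 and 0.70 with Thy1. With Cd248 it was then -0.90, -0.24 and 0.23.

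**Figure D5:**
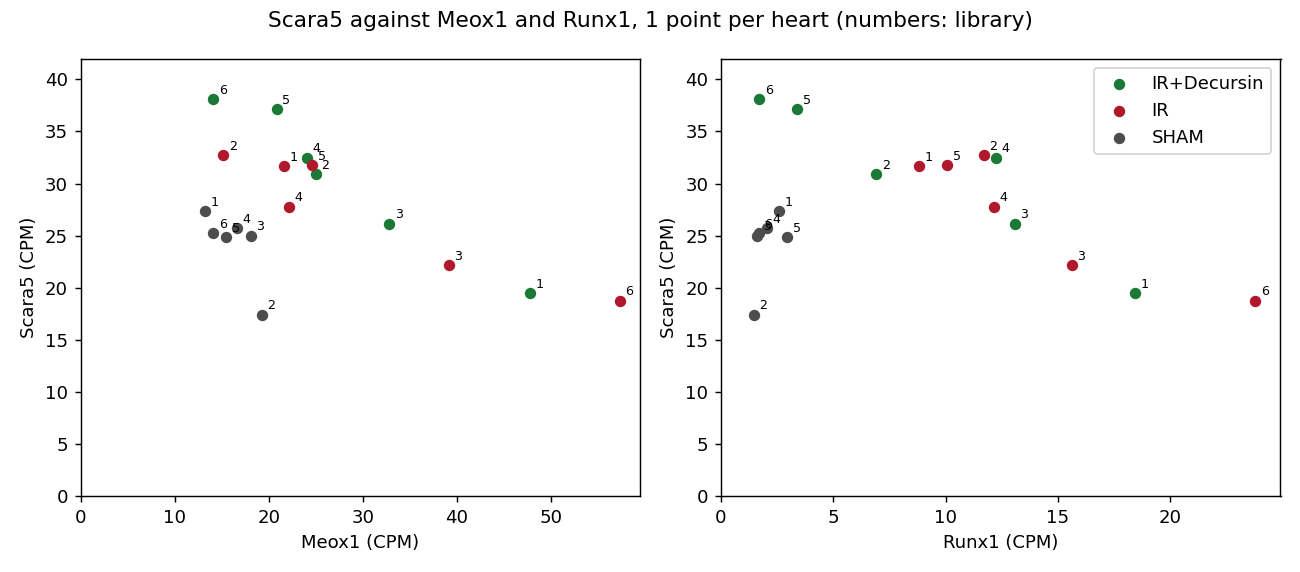
Scara5 (vertical axis, CPM) against Meox1 and against Runx1 (horizontal axes, CPM), 1 point per heart, coloured by group and labelled by replicate number. IR+Decursin 1 and IR 6, with the highest Meox1 and Runx1 of their groups, have the lowest Scara5 of their groups.

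Over all 18 libraries, each gene's pattern was set beside those of 13642 tested genes by the mean absolute difference in standardised log2(CPM + 1), in SD units, as a description. Runx1 was nearest to Adam12 (0.138), Ckap4 (0.142) and Sh3pxd2b (0.154), and Cd248 to Fndc1 (0.137), Col6a1 (0.208) and Tyro3 (0.209). Thy1 lay nearest to Piezo2 (0.212), Tyro3 (0.234) and Lama4 (0.235), and Pdgfra to Ugt1a7c (0.194), Emb (0.212) and Aldh1a2 (0.219). The nearest to Fap were Mcm7 (0.231), Knstrn (0.235) and Ncaph (0.240), and the nearest to Meox1 were Dcbld2 (0.255), Prss23 (0.278) and Inhba (0.306). For Dpt they were Ptgis (0.274), Vegfd (0.329) and Fkbp9 (0.334). The closest genes to Tcf21 (Cnot3, 0.377, Pcnx3, 0.379 and Adgrg3, 0.403), Scara5 (Adam11, 0.359, Crispld2, 0.432 and Lmo1, 0.455) and Pi16 (Zfp639, 0.465, Nploc4, 0.482 and Hmcn2, 0.485) were farther away. Among the 10 genes themselves, the closest pairs were Cd248 with Thy1 (0.334), Dpt with Cd248 (0.358) and Pdgfra with Runx1 (0.365).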

How the data were processed

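Bulk RNA of 18 mouse hearts was measured, 6 per group and 1 library per animal, grouped by their labels. For every gene symbol the authors deposited 1 raw count and 1 FPKM value per library. Per the submitters' processing notes, reads were handled with fastp, HISAT2, HTSeq and the mouse build GRCm39; neither the annotation nor the strand setting is stated in those sources. The deposited FPKM equal counts divided by gene length and library total. Antisense gene models overlap exons of Pdgfra, Pi16 and Runx1 in GENCODE for GRCm38. With the strand setting unstated, it is not known whether their reads were kept apart.

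Counts were tested with edgeR 4.0.16 (R 4.3.3): filterByExpr left 15088 of 25731 genes, TMM factors scaled the libraries, and a robust quasi-likelihood fit of all 18 libraries kept 15 residual degrees of freedom. Tests were two-sided with Benjamini-Hochberg adjustment over all genes tested, called under 0.05. SE is the absolute log2 fold change divided by the root of F. Levels are CPM with TMM factors, as mean ± SD. The fit was tested on simulated data.

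Genes named are the 10 members, the 3 genes nearest to each in pattern (leaving out symbols of unnamed gene models), and members of the marker and pathway lists, chosen for a known role. These lists, and the genes named from them, were chosen with earlier results of these data known. Alternatives were DESeq2 1.42.0, limma 3.58.1 trend on log2(FPKM + 1) and log2(FPKM + 0.1), library totals alone, other filters, the 2 groups compared alone, a replicate block, and leaving out each library or the 3 Xist-positive ones. No skeletal muscle marker, of 4 listed, had enough counts to be tested. Promoter sequences are RefSeq's for GRCm38.p6, matched by symbol. 1 gene of a pathway list is not reported here.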

Additional observations from a re-analysis of the deposited data

Results flagged for a closer look

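In 1 of 30 sets of 6 hearts (10 genes in 3 groups), the end value stood apart from the others by Dixon's 95% criterion; chance gives about 1 in 20. It was Scara5 in SHAM 2, at 17.4 CPM, beside 24.8 to 27.4 CPM in the other 5 SHAM hearts, a gap of 0.747 of the group's range. Without SHAM 2, the Scara5 log2 difference was 0.26 in IR+Decursin against SHAM hearts and 0.10 in IR against SHAM hearts, and neither passed in edgeR's test.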

How the results depend on the processing

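Of the 10 genes, 7 to 9 were called in IR against SHAM hearts, 5 to 9 in IR+Decursin against SHAM and 0 in IR+Decursin against IR under every alternative run. Genes called in all numbered 6599 to 7246 in IR against SHAM and 3461 to 5130 in IR+Decursin against SHAM hearts when 1 library was left out. In IR+Decursin against IR hearts, DESeq2 called 470, and leaving out 1 library gave 0 to 976, the highest without IR+Decursin 1; the cause was not tested. Library totals alone changed the split of calls in IR against SHAM to 7012 higher and 1056 lower, from 3810 and 3269, and in IR+Decursin against SHAM to 4781 and 377, from 2647 and 1774. In the member fits 792 kept direction and side of the threshold, 21 gained and 15 lost a call, and 12 reversed, all of uncalled values. Pi16 in IR+Decursin against SHAM turned to 0.15 (library totals), 0.15 (log2(FPKM + 1)) and 0.16 (log2(FPKM + 0.1)), and lay between -0.15 and 0.013 with 1 library left out. In IR+Decursin against IR, Dpt turned to -0.022 (log2(FPKM + 1)) and -0.023 (log2(FPKM + 0.1)) and Cd248 to 0.010 without the Xist-positive libraries. With 1 library left out in that comparison, Cd248 lay between -0.14 and 0.053, Thy1 between -0.29 and 0.043, and Meox1 between -0.36 and 0.16.

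Replicate numbers did not pair the samples: deviations of same-numbered hearts correlated at -0.02 to 0.16, -0.21 to 0.01 and -0.52 to 0.41 in IR against SHAM, IR+Decursin against SHAM and IR+Decursin against IR, and 1, 0 and 2 of 6 hearts correlated best with their own number. With the replicate block 6715, 3873 and 0 genes were called in these comparisons, of the 10 genes 7, 6 and 0. Meox1 in IR against SHAM was then 0.82 (edgeR adjusted p = 0.0666), Tcf21 in IR+Decursin against SHAM 0.40 (adjusted p = 0.0849) and Fap in the same comparison 0.53 (adjusted p = 0.0498). Without the 3 Xist-positive libraries 5777, 3706 and 0 genes were called. Runx1 in IR against SHAM was 1.25 to 3.03 and in IR+Decursin against SHAM 0.81 to 2.45 over the settings other than leaving out 1 library, lowest on log2(FPKM + 1), and passed in all 10. Its IR+Decursin against IR value lay between -0.87 and -0.32 with 1 library left out. Depth limits Runx1 most, at 1.46 CPM in the lowest SHAM heart.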

Other observations

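Cd248 and Meox1 had a positive correlation across the hearts of each ischemia-reperfusion group and a negative correlation across SHAM hearts. Pearson's r was 0.86 in IR+Decursin (exact permutation p = 0.00556), 0.76 in IR (exact p = 0.0944) and -0.90 in SHAM hearts (exact p = 0.0167), 6 hearts each. Spearman's rho was 0.94 (exact p = 0.0167), 0.71 (exact p = 0.136) and -0.94 (exact p = 0.0167) in the same order. Without the 2 hearts farthest from the median, r was 0.89, 0.69 and -0.67. None passed adjustment over the 135 relations, the adjusted p for Pearson's r being 0.188, 0.364 and 0.219, and the difference between groups was not tested.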
